A study of Xenopus laevis with 4 samples.

Results

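The hes5 cluster genes are a family of Hairy/Enhancer-of-split repressors of Xenopus laevis, an allotetraploid frog in which homeologous copies of a gene carry the suffixes L and S. Members were the probe sets of the array whose single platform gene symbol was one of 9 hes5 symbols, 6 of them L copies and 3 S copies. That gave 10 probe sets of 32539 on the array without controls, and of 15495 that carried 1 gene symbol, which covered 11303 symbols in all. hes5.5.S had 2 probe sets and every other gene had 1. RefSeq lists 20 hes5 genes in this species, and the other 11 were not analysed here.

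The samples were explants of presumptive ectoderm (animal caps) that had been cut at stage 9/10, kept in Danilchik's medium plus BSA and harvested at the equivalent of stage 12. They came from embryos that had received one of 3 synthetic RNAs at the 2-cell stage: ICD on 2 arrays, DBM on 1 array and HMM on 1 array. The series title names early targets of Notch signaling in multiciliate cell fate as the subject. In this field ICD usually stands for the Notch intracellular domain, which signals without ligand, and DBM for a DNA-binding mutant of the effector rbpj, or Su(H), which blocks the pathway. The labels do not say what HMM stands for. The labels give no clutch and no number of pooled explants, and RNA injected at the 2-cell stage is not restricted to 1 cell type. An array of uninjected caps was not analysed here, so a difference below is always between injected groups, and whether the pair of ICD arrays stems from separate clutches is not stated.

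When a Notch receptor binds a ligand on a neighbouring cell, its intracellular domain is cut free, enters the nucleus and joins rbpj and Mastermind on DNA to switch on target genes. The hes5 genes are among the targets that this complex turns on. They encode basic helix-loop-helix proteins that bind DNA, recruit co-repressors of the TLE (Groucho) family and silence other genes, among them genes that drive a cell to differentiate. In the ectoderm of Xenopus this pathway sets the spacing of multiciliate cells and ionocytes in the epidermis and of primary neurons in the neural plate. Several members are also known by older names given in RefSeq: hes5.1 as esr1, hes5.2 as esr7, hes5.3.L as esr2, hes5.6.L and hes5.7.L as esr9, and hes5.10.L as esr6e. Both hes5.6.L and hes5.7.L carry the synonym esr9, and probe sets of near-identical genes can take up each other's RNA, so a single copy is named here as the platform annotates it.

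The values are MAS5 signals, a linear intensity for each probe set, rescaled so that each array has the same 2% trimmed mean. Before rescaling, ICD replicate 1 was the dimmest array at a trimmed mean of 150.7, against 376.8 on ICD replicate 2, 408.9 on DBM and 382.1 on HMM. Its hybridization spike-ins stood at 108.3% and its poly-A spike-ins at 32.1% of the other arrays. Its 3' gapdh probe set read 1.93 times its 5' one, against 1.30 times on ICD replicate 2, 1.29 on DBM and 1.61 on HMM. The part of that array's dimness in the results was not tested, and values without it are given below. As a check of the tissue, marker signals were set against 41.4, the level under which probe sets were left out of testing. Of 22 measured markers of ectoderm and epidermis 20 had a mean signal at or above it, against 4 of 12 of mesoderm and 7 of 13 of endoderm. Being the 40th percentile of mean signal, it was reached by 19523 of all 32539 probe sets, and the endoderm count is near that share. Some marker levels moved with the groups and others did not. The summed signal of 9 neural markers, of which 6 were at or above that level, was 3568 and 6910 with ICD, against 1887 with DBM and 1381 with HMM. Most of it came from sox2.L and the sox3 copies, with sox3.S at 2132 and 3645 with ICD, against 486 with DBM and 487 with HMM, while sox2.L on ICD replicate 1, at 381, was below its DBM signal of 463. The sum of the endoderm markers was 390 and 383 with ICD, against 1384 with DBM and 1411 with HMM. Most of it with DBM and HMM came from gata5.S, hhex.L and both copies of gata4 and gata6, all lower on both ICD arrays. Of these, gata6.S had the highest DBM signal and was under 41.4 on both ICD arrays. The copies of sox17a, sox17b.1 and foxa4 were under 41.4 on every array, and those of sox17b.1 and foxa4 were higher on both ICD arrays. The sum of the mesoderm markers was 244 and 467 with ICD, against 418 with DBM and 294 with HMM. Within the ectoderm list, whose sum was 93891 and 66221 with ICD, against 89962 with DBM and 76894 with HMM, the ionocyte regulator foxi1.L stood at 112 and 116 with ICD, against 4523 with DBM and 2736 with HMM. The goblet cell gene itln1.L stood at 640 and 740 with ICD, against 11389 with DBM and 5003 with HMM. Both copies of grhl3 and krt12.4.S were also lower on both ICD arrays. Other markers of that list went the other way: dlx5.L and both copies of epcam, cldn6.1 and tp63 were higher on both ICD arrays. For tp63.S the signals were 325 and 462 with ICD, against 72.7 with DBM and 26.6 with HMM. The marker cdh1.S cut across the groups, at 2148 and 74.2 with ICD, against 91.5 with DBM and 1246 with HMM. The part of these cell types in the hes5 values was not tested. In explants, a change in the number of cells of a type and a change in RNA per cell cannot be told apart.

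All 10 hes5 probe sets were higher in caps with ICD than in caps with DBM or HMM. Their mean rescaled signal lay between 512 and 7969 with ICD, against 12.3 to 348 with DBM and 9.23 to 246 with HMM. On each probe set both ICD arrays stood above both other arrays, so the groups did not overlap; that was so for 19.3% of all tested probe sets. The difference of ICD from the mean of DBM and HMM was taken on log2(signal + 17.99), where the offset 17.99 damps the changes of dim probe sets. It ran from 3.59 to 6.95 with a median of 4.81, while the median over all 19523 tested probe sets was -0.01. These differences correspond to 12.1-fold to 124-fold on the offset scale. Their SEs lay between 0.21 and 0.34.

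By limma with Benjamini-Hochberg adjustment over all tested probe sets, 10 of 10 rose with ICD, where 1.90% of all tested probe sets did. Adjusted p ran from 2.65e-04 to 2.08e-03. For 5 of the 10 the mean of the DBM and HMM signals was under the filter level, so those probe sets entered the test through their ICD signals and had to differ. Without the filter 10 of 10 rose as well, against 0.833% of the 32539 probe sets. Only ICD was replicated, so limma took the spread from the ICD pair and assumed that DBM and HMM vary like it. In the signals as deposited, without rescaling, 0 of all 19527 probe sets tested passed limma after adjustment, the members included; 8 of 10 members were higher at an unadjusted p under 0.05, as were 0.164% of all. With signals under the filter level set to it, 0 of all 19523 passed as well, and 10 of 10 members were higher at an unadjusted p under 0.05, as were 937 of all. Ordered by log2 difference, 8 members were among the 20 highest of all tested probe sets, and the lowest member ranked 35th.

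**Figure D1:**
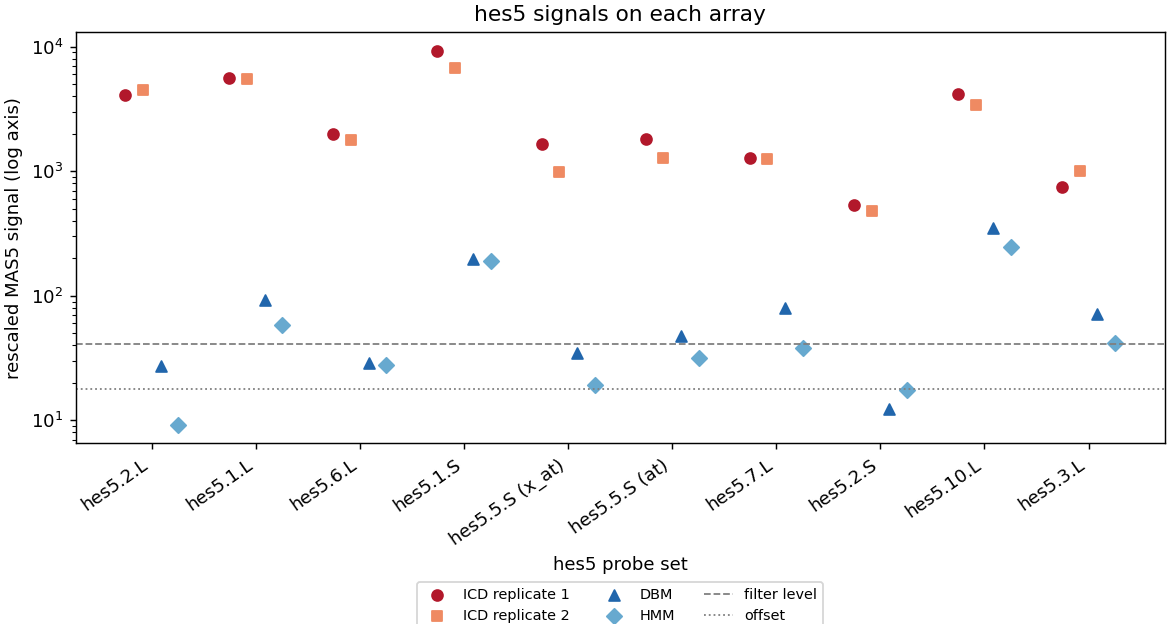
Rescaled MAS5 signal (log axis) of the 10 hes5 probe sets on the ICD, DBM and HMM arrays, 1 point per array, with the filter level of 41.4 dashed and the offset of 17.99 dotted. Both ICD points lie above the DBM and HMM points for all 10, as they do for 19.3% of all tested probe sets.

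hes5.1 and hes5.2 lie next to each other on the L and on the S chromosome, with no annotated gene between them in the RefSeq annotation of assembly version 10.1. The remaining hes5 genes form an unbroken run of 8 on each chromosome, from hes5.3 to hes5.10, with 191 other genes between the pair and the run on the L chromosome and 122 on the S chromosome.

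hes5.2.L (Entrez Gene 398151) had the highest difference of all tested probe sets. Its signals were 4120 and 4529 with ICD, against 27.2 with DBM and 9.23 with HMM. The ICD arrays were close to each other, and both other signals lay under the filter level. The difference was 6.95 ± 0.24 (SE, limma adjusted p = 2.65e-04), and the ratio of the plain signals was 237. Because that ratio rests on dim signals, the ICD mean was also set against the filter level, which it exceeded 105-fold.

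hes5.2.S (733286), the homeolog of hes5.2.L, was dim in caps with DBM and with HMM. Its signals were 540 and 483 with ICD, against 12.3 with DBM and 17.7 with HMM. Neither DBM nor HMM reached the offset. The difference was 4.01 ± 0.32 (SE, limma adjusted p = 1.85e-03). It depended on the offset more than that of any other member except hes5.2.L, running from 2.75 to 5.02 over the settings tried. Here DBM was lower than HMM, which was so for no other member.

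hes5.1.L (379151) had signals of 5626 and 5486 with ICD, against 93.3 with DBM and 58.4 with HMM. All 4 signals were above the filter level and the ICD pair differed by 0.04 on the log2 scale. The difference was 5.92 ± 0.21 (SE, limma adjusted p = 2.65e-04), the second highest of all tested probe sets. hes5.1 is known in Xenopus as a Notch target of the neural plate that holds back neuronal differentiation.

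hes5.1.S (733287) was above the filter level on every array. Its signals were 9245 and 6694 with ICD, against 198 with DBM and 191 with HMM. DBM and HMM were nearly the same, and well above the filter level. The difference was 5.21 ± 0.24 (SE, limma adjusted p = 3.78e-04), or 37.1-fold.

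Among the run from hes5.3 to hes5.10, hes5.6.L (398008) had the highest difference. Its signals were 1992 and 1774 with ICD, against 28.7 with DBM and 27.7 with HMM. DBM and HMM were nearly equal and both under the filter level. The difference was 5.36 ± 0.26 (SE, limma adjusted p = 4.19e-04), and the ICD mean was 45.5 times the filter level.

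hes5.7.L (733288), its neighbour on the chromosome, had signals of 1268 and 1246 with ICD, against 79.8 with DBM and 38.0 with HMM. The ICD pair agreed within 0.03 on the log2 scale, and DBM was higher than HMM by 0.80, the widest gap between those arrays among the members. The difference was 4.11 ± 0.26 (SE, limma adjusted p = 8.89e-04).

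hes5.5.S (378498) was read by a pair of probe sets with the same target sequence name. The probe set with the plain suffix gave 1811 and 1289 with ICD, against 47.4 with DBM and 31.8 with HMM. The probe set with the suffix x, which Affymetrix gives to probe sets whose probes may match other transcripts, gave 1654 and 982 with ICD, against 34.9 with DBM and 19.4 with HMM. In both, ICD replicate 1 was the higher of the pair and DBM was above HMM. Their differences were 4.76 ± 0.29 and 4.86 ± 0.34 (SE), with limma adjusted p of 8.20e-04 and 1.23e-03. For both, the mean of the DBM and HMM signals was under the filter level, so they entered the test through their ICD signals.

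hes5.10.L (398150) was clearly measured in caps with DBM and with HMM. Its signals were 4185 and 3399 with ICD, against 348 with DBM and 246 with HMM. The DBM and HMM signals were well above the filter level, and the difference was 3.39 to 3.68 over the offsets tried. It was 3.61 ± 0.22 (SE, limma adjusted p = 8.20e-04).

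hes5.3.L (398259) had signals of 744 and 1009 with ICD, against 72.1 with DBM and 41.8 with HMM. It was the member on which ICD replicate 1 lay furthest below ICD replicate 2, by 0.43 on the log2 scale. The difference was 3.59 ± 0.30 (SE), with a limma adjusted p of 2.08e-03. It was the lowest of the family here, but not in every setting. hes5.2.S was lowest with the offset at the median signal and with signals under the filter level set to it. hes5.10.L was lowest with an offset of 1 signal unit, with quantile normalization and in the signals as deposited. It was also lowest without DBM, and without ICD replicate 1 with DBM and HMM as 1 group. In the other settings the difference of hes5.3.L was the lowest. With DBM and HMM as 1 group and ICD replicate 2 left out, it was 3.38 and did not pass (limma adjusted p = 0.0569), and it passed in the other leave-one-out settings.

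**Figure D2:**
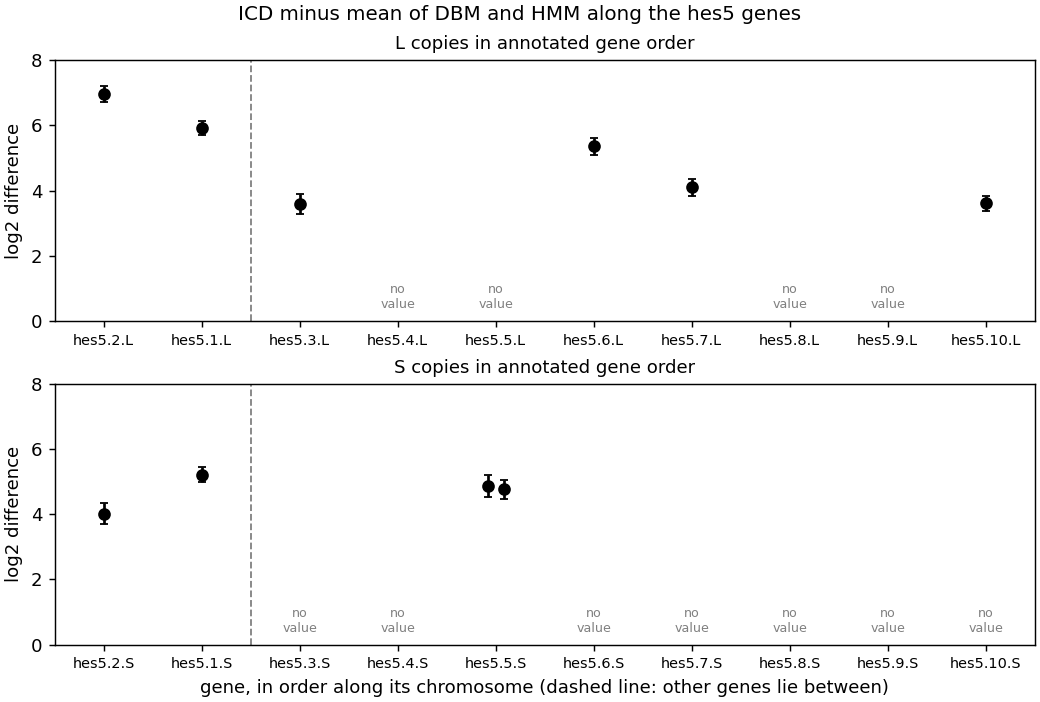
Difference of ICD from the mean of DBM and HMM on the log2 scale, with SE, for the hes5 genes in their order along the L and the S chromosome; genes marked as having no value were not analysed here. The pair left of the dashed line spans 4.01 to 6.95 and the run right of it 3.59 to 5.36.

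The order of the differences was hes5.2.L, hes5.1.L, hes5.6.L, hes5.1.S, both probe sets of hes5.5.S, hes5.7.L, then hes5.2.S, then hes5.10.L and last hes5.3.L. Neighbours in this order were set against the combined SE of their estimates. That SE treats the estimates as independent although they come from the same arrays, so it is a rough guide and not a test. For the pair of hes5.5.S probe sets it was 0.45, where the fit of their ratio within each array, given below, had an SE of 0.26. hes5.2.L exceeded hes5.1.L by 1.03 with a combined SE of 0.32, and hes5.1.L exceeded hes5.6.L by 0.56 with 0.34. These gaps depended on the offset: at 1 times the median signal they were 0.35 and 0.98, and at 1 signal unit 1.78 and 0.20, with hes5.2.L first and hes5.1.L second each time. The plain probe set of hes5.5.S stood 0.65 above hes5.7.L with a combined SE of 0.39. hes5.2.S stood 0.40 above hes5.10.L with 0.39, a gap hardly above its error; it was -0.65 with the offset at the median signal, -0.06 with signals under the filter level set to it, and 1.34 with an offset of 1 signal unit. hes5.6.L and hes5.1.S, and hes5.1.S and the x probe set of hes5.5.S, did not differ beyond their combined SE. Nor did hes5.7.L and hes5.2.S, or hes5.3.L and hes5.10.L. The ranges of the pair and the run overlapped, with medians of 5.57 over the 4 probe sets of hes5.1 and hes5.2 and 4.43 over the 6 of the run.

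**Figure D3:**
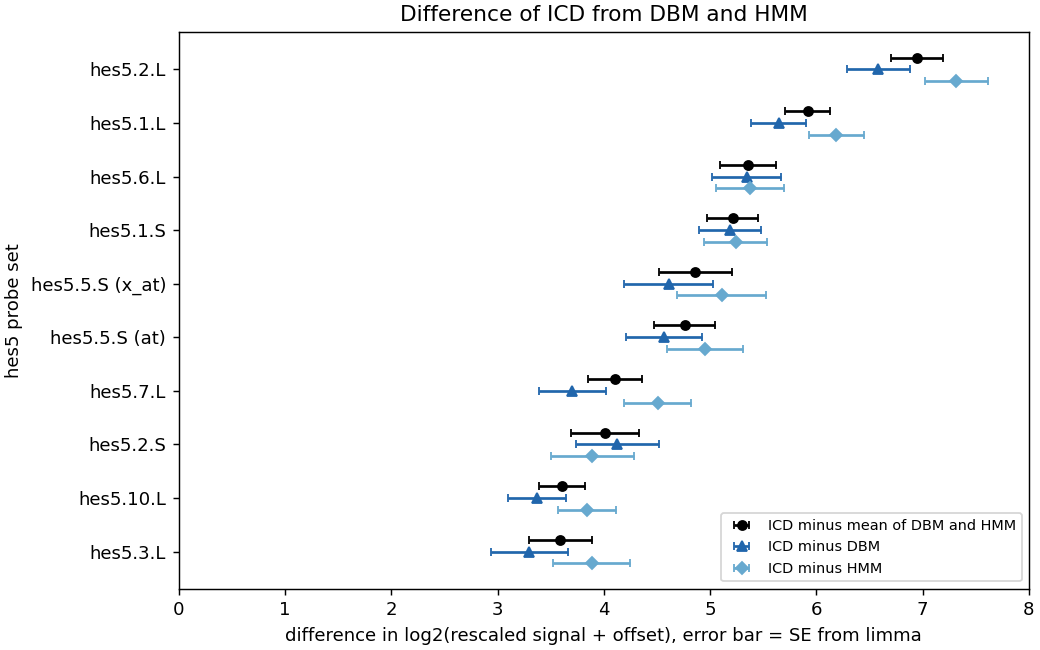
Difference of ICD from the mean of DBM and HMM, from DBM and from HMM on the log2 scale, with SE from limma, for the 10 hes5 probe sets. The differences from DBM run from 3.30 to 6.58 and those from HMM from 3.84 to 7.32.

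Set against each of the other RNAs alone, the members gave the same count. ICD against DBM gave 10 of 10 higher by limma, where 0.840% of all tested probe sets were, with differences of 3.30 to 6.58 and adjusted p of 1.18e-03 to 0.0107. ICD against HMM gave 10 of 10 higher, where 1.23% of all were, with differences of 3.84 to 7.32 and adjusted p of 7.71e-04 to 7.19e-03. These comparisons share the ICD arrays. The DBM signal lay under the filter level for 4 of 10 members and the HMM signal for 6. As above, 5 members entered the test through their ICD signals and had to differ. Without the filter 10 of 10 passed in each comparison. Of all 32539 probe sets 220 then passed in either direction against DBM and 224 against HMM. The difference from HMM was the larger for 9 of the 10, by up to 0.80 for hes5.7.L and 0.73 for hes5.2.L, and hes5.2.S was the exception at 4.13 from DBM and 3.89 from HMM. Since the ICD side is shared, these gaps are the DBM minus HMM values given next and not a separate result.

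DBM and HMM, 1 array of each, were compared as values and not tested. As given above, the 3' gapdh probe set read 1.29 times the 5' one on DBM and 1.61 times on HMM. Over all 19523 tested probe sets, ICD replicate 1 had a Pearson r of 0.912 with DBM and 0.938 with HMM. For ICD replicate 2 it was 0.928 with DBM and 0.896 with HMM, and between DBM and HMM it was 0.952. The part of such differences between arrays in the DBM minus HMM values was not tested. The signal was higher with DBM for 9 of 10 members, with a median log2 difference of 0.48, while 47.6% of all tested probe sets were higher with DBM and their median was -0.02. The count of 9 became 8 with quantile normalization and 6 with signals under the filter level set to it. Members past 2-fold numbered 0 of 10, where 3.86% of all tested probe sets were past 2-fold higher and 2.88% past 2-fold lower with DBM. With an offset of 1 signal unit, 2 of 10 were past 2-fold higher. The members whose DBM and HMM signals lay furthest above the filter level, hes5.10.L and hes5.1.S, had differences of 0.47 and 0.05.

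The absolute difference between the ICD arrays on the log2 scale had a median of 0.23 over the members and 0.29 over all tested probe sets. The members were bright on these arrays, at a median signal percentile of 94.2 on replicate 1 and 92.5 on replicate 2. No comparison with probe sets of like signal was made. The absolute difference was widest for the x probe set of hes5.5.S at 0.74 and narrowest for hes5.7.L at 0.03. After rescaling, 8 of 10 members were higher on ICD replicate 1, where 46.8% of all tested probe sets were; with quantile normalization it was 7 and 50.6%, and in the signals as deposited 0 and 1.31%.

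The L and S copies were compared through the ratio of their probe sets within each array. Such a ratio can show unequal change but gives no comparison of the copies' levels. For hes5.1 the L minus S value was -0.71 and -0.29 with ICD, against -0.96 with DBM and -1.45 with HMM. Both ICD values lay above the others, and the shift was 0.70 ± 0.30 (SE, limma adjusted p = 0.557 over 1360 genes with both copies tested). The shift of hes5.1 thus did not pass.

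For hes5.2 the L minus S value was 2.89 and 3.18 with ICD, against 0.58 with DBM and -0.39 with HMM. The ICD values lay far above the others, and the shift was 2.94 ± 0.29 (SE). It had a limma adjusted p of 0.0432, where 0.441% of the 1360 genes passed in either direction. The call was near the threshold and was lost in 5 of 7 other settings, with adjusted p between 0.0790 and 0.380, while the shift itself stayed between 2.79 and 3.09. With DBM and with HMM both probe sets of hes5.2 lay under the filter level, so they entered this fit through their ICD signals. Whether the copies themselves changed unequally cannot be told from it.

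The same fit over 1765 genes with at least 2 tested probe sets gave no call for hes5.5.S. The plain minus x value was 0.13 and 0.39 with ICD, against 0.31 with DBM and 0.41 with HMM. The ranges overlapped, and the shift was -0.10 ± 0.26 (SE, limma adjusted p = 0.998). Of all 1765 genes 0 passed the limma test after adjustment, and 87 had an unadjusted p under 0.05.

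**Figure D4:**
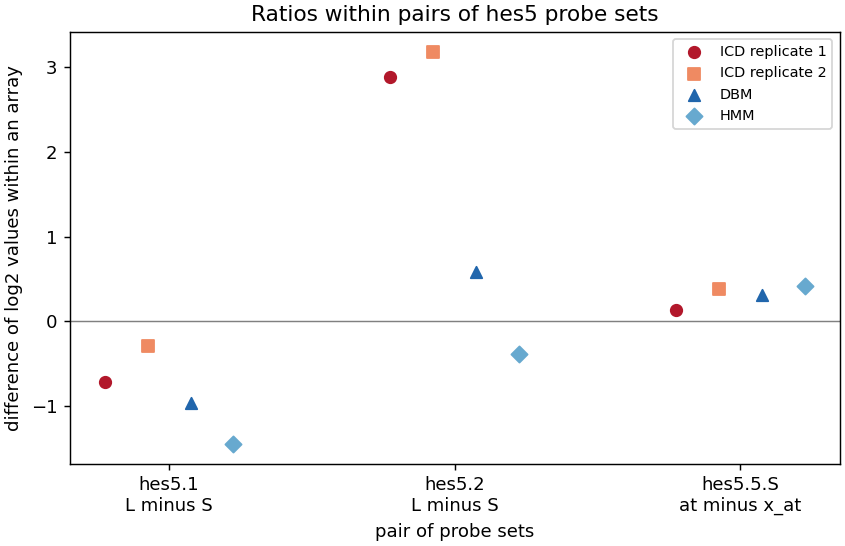
Difference of log2 values within an array between the L and S probe sets of hes5.1 and of hes5.2, and between the plain and x probe sets of hes5.5.S, 1 point per array. The hes5.2 values are 2.89 and 3.18 with ICD against 0.58 with DBM and -0.39 with HMM.

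Genes outside the family with the most similar profile were sought by the root mean square distance of their centred log2 values to the mean profile of the 9 hes5 genes over the 4 arrays. Only the probe set with the highest mean signal was used for each gene. The nearest were hes4.S at 0.20, cnfn.1.L at 0.22, hey1.S at 0.29, cavin1.L at 0.47 and enc1.2.S at 0.54, all on the log2 scale. The members themselves lay between 0.13, for hes5.5.S, and 1.07, for hes5.2.L. hes4.S and hey1.S encode repressors of the same wider family, cnfn.1.L is named for cornifelin and cavin1.L for a coat protein of caveolae. cnfn.1.L had signals of 1277 and 899 with ICD, against 40.1 with DBM and 21.9 with HMM. With 4 arrays that split into ICD and the rest, this likeness is a description of that split.

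Other genes of the Notch pathway did not move as one. Each was read by 1 probe set, that with the highest mean signal. Of 21 measured outside the hes5 cluster, 5 rose, 3 fell and 13 did not pass by limma, with a median log2 difference of 0.14. Over all 19523 tested probe sets 370 rose and 398 fell by the same test, with a median of -0.01. Among the other repressors and the TLE family 2 of 9 rose, hey1.S by 5.41 ± 0.21 (SE) and hes4.S by 4.78 ± 0.22, differences within the range of the hes5 members. A second probe set gave 4.78 ± 0.21 for hey1.S and 4.47 ± 0.21 for hes4.S. The other copy of hes4, hes4.L, had signals of 6871 and 5911 with ICD, against 3608 with DBM and 2947 with HMM. Its difference of 0.96 did not pass (limma adjusted p = 0.107). hes1.L, a repressor of the same family, had signals of 73.7 and 96.8 with ICD, against 1506 with DBM and 601 with HMM, and fell by 3.24 ± 0.27. Its homeolog hes1.S, with a difference of -1.29, did not pass (limma adjusted p = 0.102). Of the TLE family, the co-repressor genes tle2.L and tle4.S had differences of 0.11 and 0.20. The copies of tle5, a short family member known to oppose the others, had differences of 0.29 for tle5.L and 0.14 for tle5.S. None of these 4 passed by limma.

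Among the ligands dll1.L fell 36.7-fold and dlc.L 24.0-fold, and jag1.L rose by 1.79 ± 0.31 (SE) on the log2 scale. The feedback inhibitor nrarp.S rose by 3.21 ± 0.29 and dtx4.L, named for a Deltex ubiquitin ligase, by 1.36 ± 0.22. The calls of jag1.L and dtx4.L were the nearest to the threshold, with limma adjusted p of 0.0287 and 0.0244. The effector rbpj.S (-0.22), the receptor notch1.S (-0.35) and the coactivator maml1.L (0.14) did not pass, with limma adjusted p of 0.694 to 0.929. The labels do not say whether these probe sets detect the injected RNAs.

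**Figure D5:**
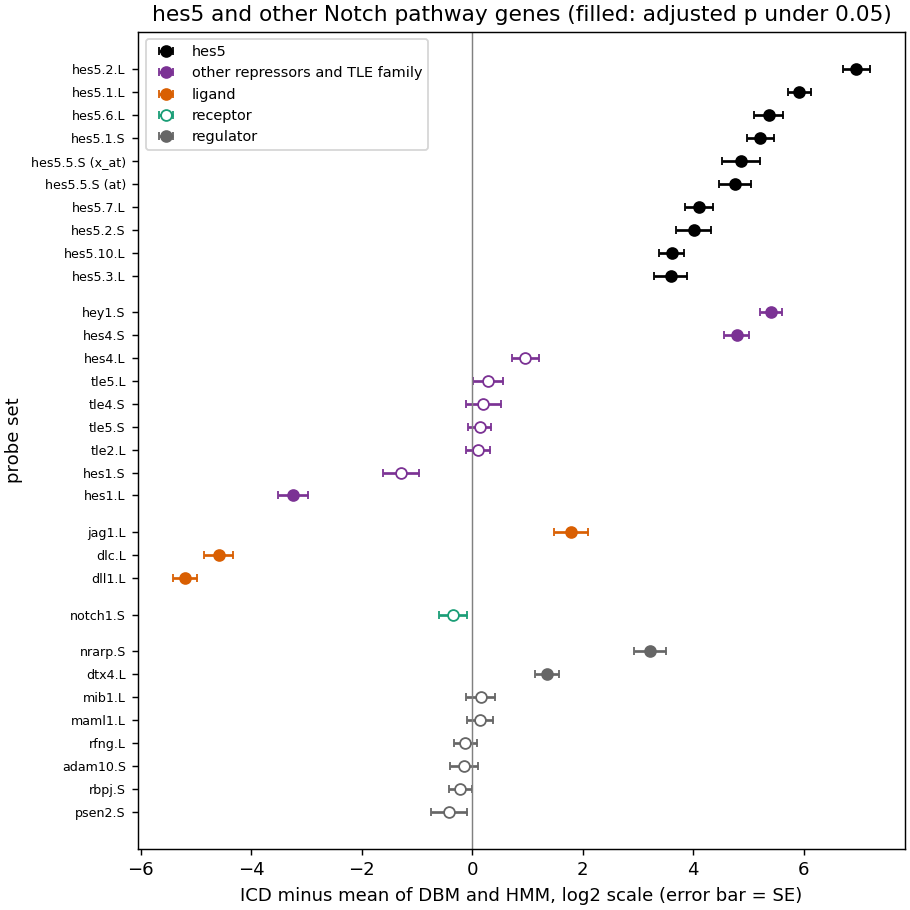
Difference of ICD from the mean of DBM and HMM on the log2 scale, with SE, for the 10 hes5 probe sets and 21 other Notch pathway genes grouped by role, with filled points past a limma adjusted p of 0.05. The hes5 points lie between 3.59 and 6.95, and 13 of the 21 others are open. Over all 19523 tested probe sets 370 rose and 398 fell by the same test.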

How the data were processed

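Affymetrix arrays measured total RNA of animal cap explants, 2 arrays with ICD, 1 with DBM and 1 with HMM. The authors summarised each array with MAS5, per the submitters' processing notes, and deposited the signal as a linear intensity; the version and target level are not given in the sources used here. No detection call was used. Gene symbols are those of the platform annotation; RefSeq held the Entrez Gene identifier of 99.3% of the probe sets with 1 symbol, and its symbol was used. No build is given for the array, so no coordinates are printed.

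Here each array was rescaled to the common 2% trimmed mean of 329.6, and log2(signal + 17.99) was used, its offset equal to 0.25 of the median signal after rescaling. Probe sets under the 40th percentile of mean signal (41.4) were left out, which left 19523. limma 3.58.1 in R 4.3.3 fitted 1 mean per RNA, with eBayes and an intensity trend, two-sided, Benjamini-Hochberg at 0.05. It had 1 residual and 5.82 prior degrees of freedom. Since the labels name no separate cultures, p-values reflect array-to-array spread that may be technical. Ratios of probe sets were fitted the same way without a trend. On simulated data the fit recovered large changes, but its share of false calls exceeded the nominal level. The excess was larger when each probe set kept its own spread from the real fit. The counts of calls may thus hold more false ones than the level of 0.05 states. A call near the threshold is weaker than its adjusted p states.

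The members and lists were chosen with earlier results of these data known. The rule for named genes took all members, Notch pathway genes past the threshold (at most 6 each way), the 5 most alike genes and the 5 highest probe sets. The TLE genes, sox2.L, sox3.S, foxi1.L, itln1.L, rbpj.S, notch1.S and maml1.L were named after their values were seen. So were hes4.L, hes1.S, gata6.S and the other endoderm and ectoderm markers named. Alternatives were other offsets, filters, scalings, eBayes without a trend, and arrays left out; setting signals under the filter level to it was added after seeing the data. Figures were drawn with matplotlib 3.10.9.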

Additional observations from a re-analysis of the deposited data

How the results depend on the processing

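In every setting run, the 10 hes5 probe sets had a positive difference of ICD from DBM, from HMM and from their mean. The count of members past the limma threshold was 10 for each comparison under the other offsets and filters, quantile normalization and eBayes without a trend, and 9 to 10 with 1 array left out, where hes5.3.L was the one lost. It was 0 for each of the 3 comparisons, as was the count over all probe sets, in the signals as deposited, where ICD replicate 1 lay 1.21 below replicate 2 on the log2 scale in the median; there 7 to 8 members were higher at an unadjusted limma p under 0.05, as were 0.0666% to 0.164% of all. Both counts were also 0 for each with signals under the filter level set to it, added after seeing the data, which made the ICD arrays equal on 342 of 19523 probe sets; there 10 members were higher at an unadjusted limma p under 0.05, as were 683 to 937 of all, and the cause was not tested. The median difference from the mean of DBM and HMM was 3.81 when the offset was raised to the median signal. For DBM against HMM, the members past 2-fold were 2 with an offset of 1 signal unit and 0 in the other settings. The hes5.2 ratio of L to S had shifts of 2.97 (adjusted p = 0.0975) with an offset of 1 signal unit, 2.94 (0.0799) with no filter and 2.94 (0.0790) with DBM and HMM as 1 group, which became 3.09 (0.301) when ICD replicate 1 was left out and 2.79 (0.380) when ICD replicate 2 was. The hes5.5.S ratio changed sign, to 0.075 when the offset was raised to the median signal and to 0.026 with DBM and HMM pooled and ICD replicate 1 left out, and passed in no setting. The Notch pathway calls outside the cluster were 6 without DBM and 6 without HMM. They were 8 under the other filters, with the offset raised to the median signal and with DBM and HMM as 1 group. In the remaining settings they were not counted. No paired analysis was possible because the groups share only replicate number 1. With 4 arrays every value has low precision.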
